A study of Mus musculus with 31 samples.

Results

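Cytochrome P450 genes of families 1 to 4 were followed in the liver and the epididymal adipose tissue of mice exposed to intermittent hypoxia (IH) or to normoxia (NO). The genes were chosen by name alone, as every probe whose gene symbol reads Cyp1a, Cyp1b, Cyp2, Cyp3a or Cyp4 followed by a subfamily letter and a number. This gave 79 probes for 58 genes of 19 subfamilies, out of 25697 probes and 16593 genes on the arrays, with 3 genes of family 1, 36 of family 2, 6 of family 3 and 13 of family 4. One probe stood for each of 44 genes, and the other 14 had several. The rule itself used no measured value, but it was set with earlier results of these data known.

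The mice were 16-week-old male C57BL/6JRj mice. In IH mice the inspired oxygen alternated every 30 s between 5% and 21%, in cycles of 60 s, during 8 h of the daily sleeping period over 14 days, and NO mice were kept at 21% throughout with cycles of air and air. All were killed on day 15. There were 7 liver arrays from IH mice and 8 from NO mice, and 8 adipose arrays from each exposure, and whether the arrays of both tissues came from the same animals is not given. The RNA was that of bulk tissue, in which fewer cells of a type and less RNA per cell cannot be told apart.

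P450 enzymes of these families are heme proteins of the endoplasmic reticulum that use molecular oxygen, with electrons from P450 oxidoreductase or cytochrome b5, to oxidize a substrate. The liver is known for them, since hepatocytes use them to clear drugs, toxins and steroids, and many are held near the central vein of the lobule. Family 1 acts on planar aromatic compounds and follows the aryl hydrocarbon receptor. Family 2 is the broadest, with the drug-inducible Cyp2b and Cyp2c genes under the receptors CAR and PXR and the Cyp2j genes, which include epoxygenases of arachidonic acid. Family 3 holds the Cyp3a enzymes of drug and steroid metabolism. Family 4 hydroxylates the end of fatty acid chains, and its Cyp4a genes are classical targets of the fatty acid receptor PPAR alpha.

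Expression was read as log2 intensity after background correction and quantile normalization, and a probe counted as detected on an array when its detection p-value was under 0.01. Between 8712 and 9293 probes were detected on the liver arrays of IH mice and between 8359 and 9158 on those of NO mice. The adipose arrays detected 10775 to 12340 probes under IH and 10261 to 11932 under NO. The 12 hepatocyte markers averaged 13.13 to 13.34 in IH livers and 13.02 to 13.32 in NO livers, and the 7 adipocyte markers measured averaged 9.50 to 11.65 in IH adipose tissue and 11.73 to 12.21 in NO adipose tissue. Each chip held 1 exposure of a tissue, so that chip and exposure cannot be told apart in either tissue. On 3 adipose arrays (IH replicates 16 and 19 and NO replicate 4) the epididymis gene Adam7 read 14.36, 14.95 and 12.05, against 5.42 or less on the other 13, and adipose IH replicate 19 correlated least with the rest (median r = 0.897). Adipose IH replicate 18 carried hepatocyte transcripts (Apoa2 9.40, against 6.66 or less on the other adipose arrays). Without IH replicate 18 Cyp1b1 (-1.47) and Cyp2j9 (-0.78) were still called lower in adipose tissue between IH and NO, and values without the 3 arrays with epididymis transcripts stand beside the adipose results.

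The P450 genes of families 1 to 4 were far more often detected in liver than in adipose tissue. In liver 28 of the 58 genes (48.3%) were detected on every one of the 15 arrays, against 31.8% of all genes, and 21 on none. In adipose tissue 9 of the 58 (15.5%) were detected on every one of the 16 arrays, against 39.2% of all genes, and 37 on none. Only 5 genes were detected on every array of both tissues (Cyp2d22, Cyp2e1, Cyp2j9, Cyp4f13 and Cyp4v3), 16 on every liver array and no adipose array, and 2 (Cyp1b1 and Cyp2s1) on every adipose array and no liver array. No array of either tissue detected 15 genes, which were Cyp1a1, Cyp2b9, Cyp2b13, Cyp2b19, Cyp2c38, Cyp2c55, Cyp2c65, Cyp2d34, Cyp2j5, Cyp2j6, Cyp2r1, Cyp3a16, Cyp3a41a, Cyp3a44 and Cyp4x1.

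By subfamily, every liver array detected 6 of the 10 Cyp2c genes, 6 of the 8 Cyp2d genes, 3 of the 6 Cyp3a genes, 2 of the 4 Cyp4a genes, 3 of the 6 Cyp4f genes and both Cyp2a genes. None of the 5 Cyp2b genes was detected on every array of a tissue. Of 6 enzymes listed here as female-predominant in mouse liver, Cyp2b9, Cyp2b13, Cyp3a16, Cyp3a41a and Cyp3a44 were detected on no liver array and Cyp2c40 on 2 arrays, both of IH mice (highest level 6.38, against 5.85 in NO livers). Cyp2b10 and Cyp4a14, inducible genes that can also be higher in females, were detected on 6 and 8 of the 15 liver arrays. The male-predominant Cyp2d9, Cyp4a12a and Cyp4a12b were detected on every liver array. Genes of the larger subfamilies share a chromosome (Cyp2c on chromosome 19, Cyp2d on 15, Cyp3a on 5) and resemble each other in sequence. Whether a probe also read a neighbouring copy was not tested, since probe sequences were not used here.

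Of the 58 genes, 36 had a probe detected on at least 7 of the 31 arrays and were compared between tissues, with all arrays normalized together. Many genes met this filter only through the tissue where they are higher. They include the 16 detected on every liver array and no adipose array, Cyp2c70, Cyp1b1 and Cyp2s1. For such genes the call and its p-value are no separate evidence of a difference, and the counts and median below include them. Under NO, 32 of the 36 differed between liver and adipose tissue at an adjusted p under 0.05, 28 of them higher in liver and 4 lower. Among all 8905 genes tested 73% differed, with 29.8% higher and 43.3% lower in liver, so that a difference in itself was common and its direction was not. The median log2 difference of the P450 genes was 5.35, beside -0.20 over all genes. In 20 of the 28 genes higher in liver the probe was detected on no adipose array of NO mice, and their fold is given as a bound, in which the liver mean is set against the adipose mean after each adipose value below the lowest detected signal of its array is raised to that signal.

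**Figure D1:**
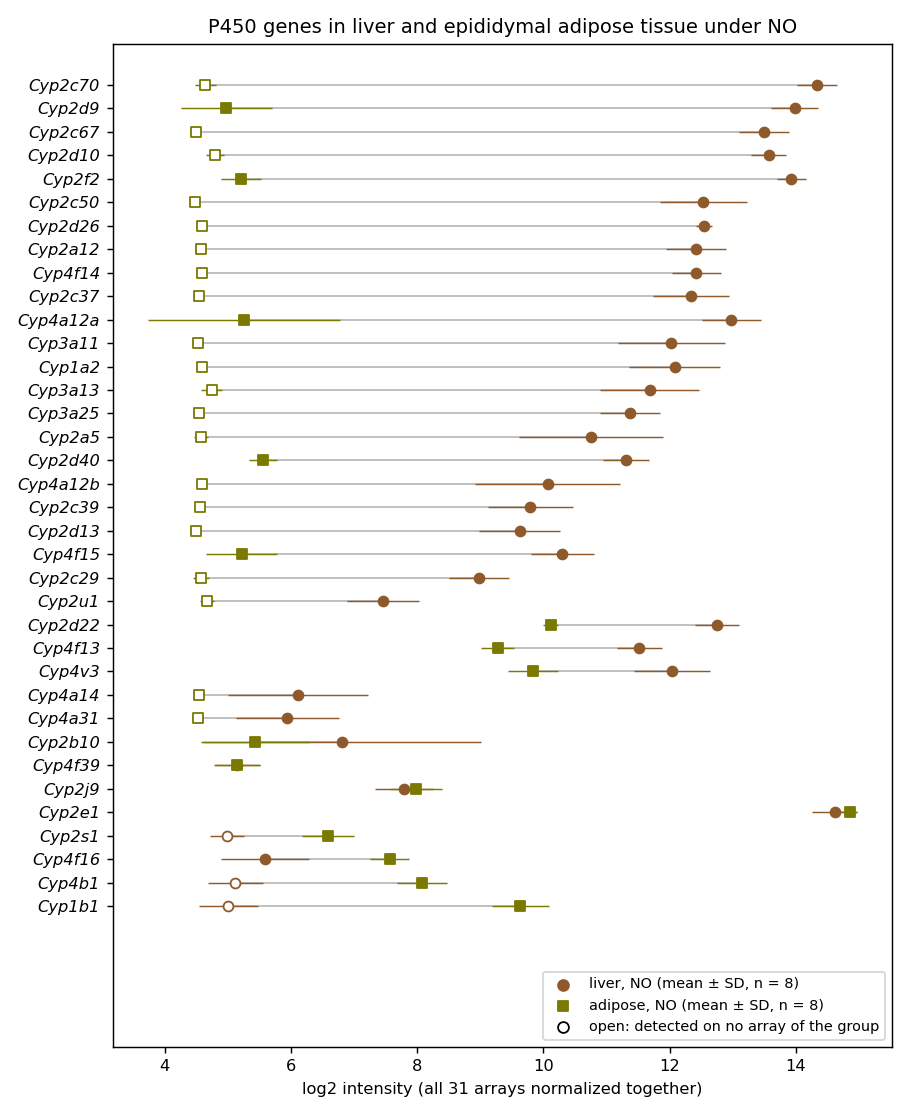
Mean log2 intensity of the 36 P450 genes tested between tissues in NO mice, with liver as brown circles and adipose tissue as olive squares, bars of 1 SD (n = 8 arrays each) and open symbols where no array of the group detected the probe. Genes are ordered by the difference, and 28 lie to the right in liver, 4 lie to the right in adipose tissue, and 4 (Cyp2b10, Cyp4f39, Cyp2j9 and Cyp2e1) were not called.

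Among the largest differences were those of Cyp2c and Cyp2d genes and to Cyp2f2. Cyp2c70, which hydroxylates bile acids in mice, averaged 14.33 ± 0.32 in liver and 4.64 ± 0.17 in adipose tissue (SD, n = 8 each), at least 497-fold higher in liver (adjusted p = 5.84e-30). Cyp2d9, a steroid hydroxylase, averaged 13.98 ± 0.37 in liver and 4.97 ± 0.72 in adipose tissue (SD, n = 8 each). Only 3 of the 8 adipose arrays detected it, so that the measured ratio of 515 rests mostly on adipose values at background. Cyp2c67 was at least 279-fold and Cyp2d10 at least 293-fold higher in liver. Cyp2f2, an enzyme of the periportal hepatocyte, had a measured ratio of 423, again with 3 of 8 adipose arrays detected. The drug-metabolizing Cyp3a11 (at least 101-fold), Cyp1a2 (at least 104-fold) and Cyp2a12 (at least 132-fold) followed. Smaller differences in the same direction were those of Cyp2d22 (6.22-fold), Cyp4f13 (4.75-fold) and Cyp4v3 (4.6-fold), which both tissues detected on every array.

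The 4 genes called higher in adipose tissue were Cyp1b1, Cyp4b1, Cyp2s1 and Cyp4f16. Of these, Cyp4f16 shares its subfamily with Cyp4f13, Cyp4f14 and Cyp4f15, which were higher in liver. Cyp1b1, which metabolizes estrogens and aromatic compounds outside the liver, averaged 5.01 ± 0.47 in liver, where no array detected it, and 9.63 ± 0.45 in adipose tissue (SD, n = 8 each), at least 9.72-fold higher in adipose tissue (adjusted p = 7.42e-20). Cyp4b1 was at least 3.31-fold and Cyp2s1 at least 1.18-fold higher in adipose tissue. Cyp4f16 had a measured ratio of 3.95 in the same direction, with 1 of 8 liver arrays detected. Cyp2e1, the ethanol-oxidizing enzyme, was called in neither direction, with 14.62 ± 0.35 in liver and 14.87 ± 0.10 in adipose tissue (SD, n = 8 each, log2 difference -0.25, SE 0.36, adjusted p = 0.544). Both levels lie at the top of the range the arrays recorded, and whether the probe could still show a difference there was not tested. Cyp2j9, Cyp2b10 and Cyp4f39 were also not called. Under IH the counts were likewise 28 higher and 4 lower of 36, against 78% of all genes called (32% higher and 46% lower).

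Promoters of the P450 genes are described beside these differences between tissues. RefSeq promoters on GRCm38.p6, with 250 bases before to 50 after the start, matched 47 of the 58 genes and gave 53 promoters, and 11 letter patterns were searched on both strands. The patterns were chosen with these promoters in view, so that their shares are a description. The HNF4 element CAAAGTCCA, the letters bound by the hepatocyte factor HNF4 alpha, stood in 7 of 53 promoters (13.2%) and in 0.475% of all 32851. Its 7 genes were Cyp2c40, Cyp2c65, Cyp2c67, Cyp2c70, Cyp3a11, Cyp3a16 and Cyp3a41a, and every liver array detected only Cyp2c67, Cyp2c70 and Cyp3a11 of them. Neighbouring copies share promoter sequence and are not separate instances of the match.

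Other patterns differed in the same description. TATAAA stood in 41.5% of the P450 promoters and 13.6% of all, and the C/EBP pattern TTGCNNAA in 30.2% and 10.8%. The core of the hypoxia response element, ACGTG, stood in 5.66% of the P450 promoters and 19.6% of all, and the xenobiotic response pattern TNGCGTG in none of the 53 and in 5.07% of all. TAGGTCA, the ROR element, stood in 1.89% and 2.61%. The D-box of clock output factors, TTATGTAA or TTACGTAA, stood in none of the 53 and in 1.06% of all, and TTANGTAA, which includes both, in 1.89% and 2.32%. The direct repeat with a spacer of 1 base read by PPAR alpha was in none of the 53 and in 0.0396% of all, its looser form with a free base in each repeat in 5.66% and 0.381%, and the HNF1 element in none and in 0.0609%.

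The promoters of 6 genes are shown, each 5′ to 3′ along its gene, to place these letters before the genes whose levels are described. In Cyp2c67, Cyp2c70 and Cyp3a11 the capitals mark the HNF4 element, 125, 64 and 109 bases before the start. In Cyp2a5 they mark a match to the C/EBP pattern 71 bases before the start, and in Cyp2e1 the hypoxia response core, read on the other strand, joined to the TATA box 31 bases before the start. Only these matches are in capitals, and other matches stay in lower case. Among those are TATAAA in Cyp2c67, Cyp2c70, Cyp3a11 and Cyp2a5, the C/EBP pattern in Cyp2c67 and the ROR element in Cyp3a11. The promoter of Cyp1b1, detected on every adipose and no liver array, held none of the patterns and has no capitals.
Cyp2c67 (chr19:39648993-39649292, minus strand): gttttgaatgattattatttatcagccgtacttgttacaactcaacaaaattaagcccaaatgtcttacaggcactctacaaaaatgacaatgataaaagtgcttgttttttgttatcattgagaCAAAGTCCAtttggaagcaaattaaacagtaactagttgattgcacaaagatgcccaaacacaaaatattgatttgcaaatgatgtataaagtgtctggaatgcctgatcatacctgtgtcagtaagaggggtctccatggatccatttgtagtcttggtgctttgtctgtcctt
Cyp2c70 (chr19:40187237-40187536, minus strand): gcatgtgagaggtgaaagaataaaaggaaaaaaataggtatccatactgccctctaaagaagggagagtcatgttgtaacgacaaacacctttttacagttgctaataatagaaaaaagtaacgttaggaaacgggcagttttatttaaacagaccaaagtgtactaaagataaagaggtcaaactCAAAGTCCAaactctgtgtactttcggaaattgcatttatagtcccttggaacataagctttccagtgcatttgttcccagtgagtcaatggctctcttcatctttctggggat
Cyp3a11 (chr5:145879805-145880104, minus strand): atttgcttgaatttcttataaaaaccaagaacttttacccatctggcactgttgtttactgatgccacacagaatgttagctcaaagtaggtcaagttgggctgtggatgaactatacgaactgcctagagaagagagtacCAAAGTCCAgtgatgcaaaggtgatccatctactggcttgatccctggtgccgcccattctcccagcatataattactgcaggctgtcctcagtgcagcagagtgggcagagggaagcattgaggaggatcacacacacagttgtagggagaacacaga
Cyp2a5 (chr7:26835089-26835388, plus strand): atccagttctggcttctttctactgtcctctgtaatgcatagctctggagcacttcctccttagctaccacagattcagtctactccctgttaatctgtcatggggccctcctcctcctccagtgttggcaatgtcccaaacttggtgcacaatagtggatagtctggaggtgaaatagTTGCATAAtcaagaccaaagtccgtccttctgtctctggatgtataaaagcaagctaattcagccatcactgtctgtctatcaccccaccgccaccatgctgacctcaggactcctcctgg
Cyp2e1 (chr7:140763569-140763868, plus strand): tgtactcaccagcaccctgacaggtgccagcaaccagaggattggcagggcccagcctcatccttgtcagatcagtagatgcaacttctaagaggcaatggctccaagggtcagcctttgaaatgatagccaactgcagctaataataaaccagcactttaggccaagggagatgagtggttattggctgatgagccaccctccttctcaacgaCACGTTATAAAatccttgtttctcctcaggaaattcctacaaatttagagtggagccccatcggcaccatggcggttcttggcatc
Cyp1b1 (chr17:79715012-79715311, minus strand): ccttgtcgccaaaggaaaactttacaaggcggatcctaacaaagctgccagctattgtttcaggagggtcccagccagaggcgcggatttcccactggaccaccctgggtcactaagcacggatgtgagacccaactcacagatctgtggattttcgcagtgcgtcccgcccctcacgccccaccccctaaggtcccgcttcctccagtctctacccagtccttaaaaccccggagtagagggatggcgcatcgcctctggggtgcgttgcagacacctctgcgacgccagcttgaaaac

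In liver limma called no P450 gene of these families between IH and NO, and SAM, the test of the study's methods, called 1, Cyp4a31. The share of all genes that SAM called is not given here, so its count has no background beside it. Of the 58 genes 30 were detected on at least 7 liver arrays and tested, and 0 of them reached an adjusted p under 0.05 in limma, against 0.931% of all 6443 genes. With no adjustment and a threshold of 0.01, 1 of the 30 passed, against 6.24% of all genes (2.7% higher and 3.54% lower). That gene was Cyp4a31, which was higher under IH and met the filter of 7 arrays only through its IH arrays. The median log2 fold change was 0.08 over the 30 genes and -0.01 over all genes, with 20 of the 30 above 0. No gene of the 30 had groups that did not overlap, against 0.481% of all genes.

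**Figure D2:**
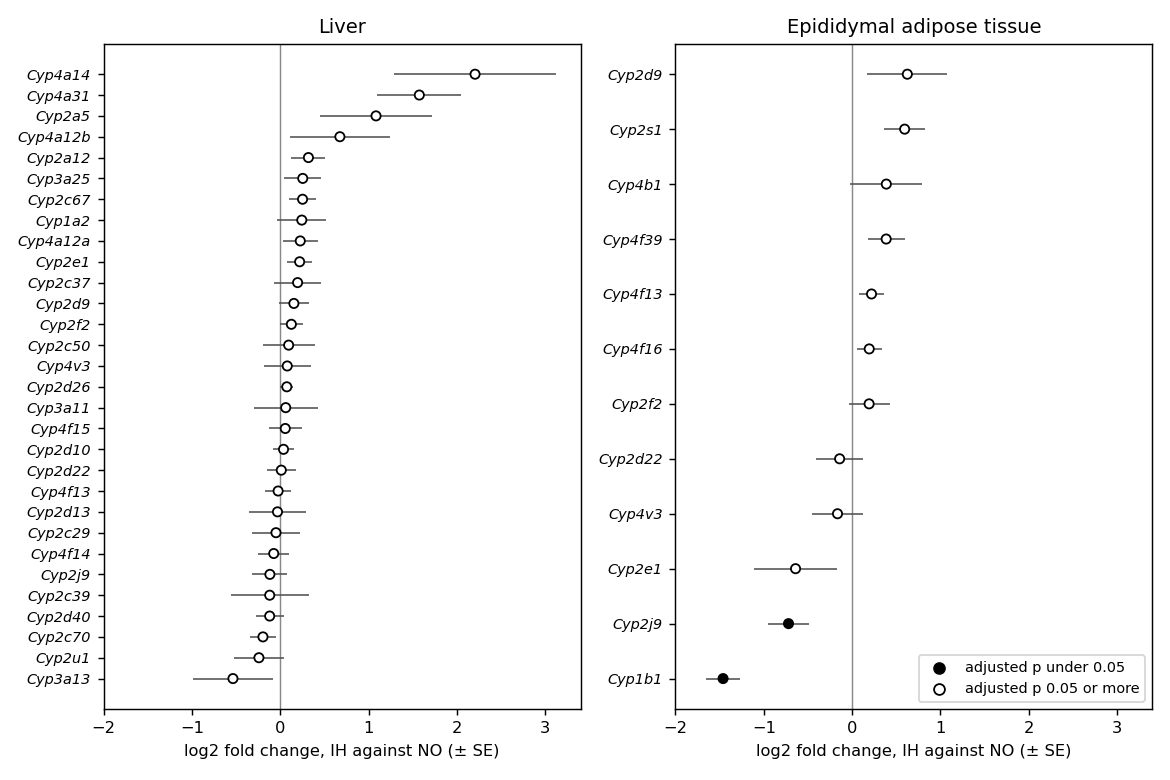
Log2 fold change of IH against NO with its standard error for the 30 P450 genes tested in liver (left) and the 12 tested in adipose tissue (right), filled where the adjusted p is under 0.05. In liver the fold changes run from -0.54 for Cyp3a13 to 2.20 for Cyp4a14 with none called, and in adipose tissue Cyp1b1 (-1.46) and Cyp2j9 (-0.72) are called.

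The largest fold changes in liver were those of Cyp4a14 and Cyp4a31, both fatty acid hydroxylases. Cyp4a31 read 9.56, 7.26, 7.04, 8.74, 6.32, 6.43 and 7.02 in the 7 IH livers (replicates 16 to 22) and 6.05, 5.75, 5.36, 5.17, 4.88, 6.80, 6.03 and 7.23 in the 8 NO livers. All 7 IH livers lay above the NO mean of 5.91 and 3 lay above every NO liver, and the probe was detected on all 7 IH and on 2 NO arrays. The log2 fold change was 1.57 (SE 0.48, adjusted p = 0.118 from limma), and the two-sided exact permutation p was 0.00699, unadjusted. The gene met the filter of 7 arrays only through the IH arrays, where it is higher. These p-values and the SAM call are therefore no separate evidence of a difference.

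Cyp4a14, the most strongly inducible of these genes under PPAR alpha agonists in mice, read 11.66, 9.18, 8.54, 11.06, 4.78, 5.31 and 7.53 in the IH livers and 4.85, 5.03, 5.30, 6.69, 5.43, 7.55, 6.32 and 7.55 in the NO livers. Of the IH livers 4 lay above every NO liver, while replicate 20 lay below every one. Its log2 fold change of 2.20 (SE 0.92) was not called (adjusted p = 0.235, two-sided exact permutation p = 0.0516). The probe was detected on 8 liver arrays, 3 of them of NO mice. Neither group alone would have met the filter of 7 arrays, and most of the detected arrays were of IH mice, where the gene is higher. Within the 7 IH livers both genes ranked the arrays in the same order (r = 0.93 with exact permutation p = 0.00298, rho = 1.00 with exact permutation p = 3.97e-04, r = 0.95 without the 2 arrays farthest from the median). Within the 8 NO livers r was 0.64 and rho 0.33 (exact permutation p = 0.0947 and 0.428), and r was -0.21 without the 2 farthest arrays. Over the 72 relations computed among 9 genes and both liver groups the adjusted p within IH livers was 0.2, and 0 of 72 passed the adjustment.

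The rest of family 4 moved less. Cyp4a12b, a male-predominant hydroxylase, ranged from 9.01 to 12.48 in IH livers (median 11.27) and from 8.46 to 11.64 in NO livers (median 10.30), with a log2 fold change of 0.67 (SE 0.56, adjusted p = 0.588). Cyp4a12a, its close copy, had a fold change of 0.23 on the log2 scale. Cyp4f13, Cyp4f14, Cyp4f15 and Cyp4v3 lay between -0.07 and 0.08. Of 5 other PPAR alpha targets tested in liver 0 were called, and 4 had a log2 fold change above 0 (median of the 5, 0.36). The fold changes of Acot1 and Pdk4 were 0.65 and -0.99 (adjusted p = 0.553 and 0.0972).

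**Figure D3:**
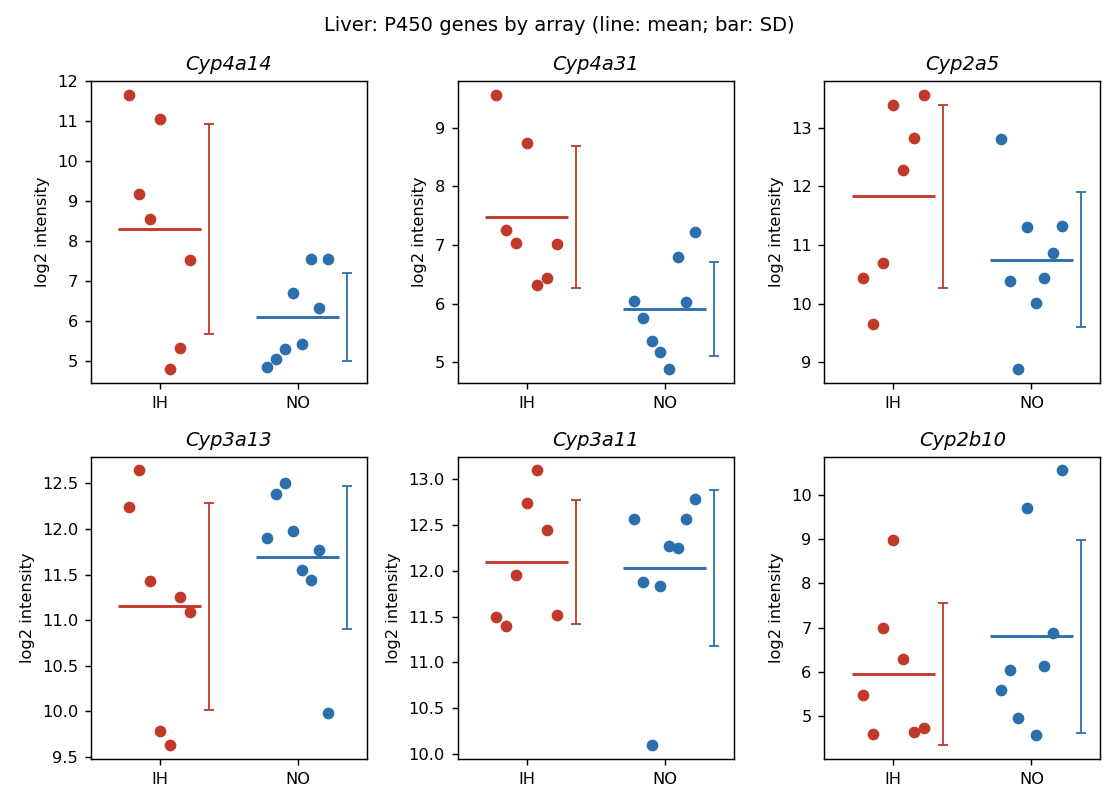
Log2 intensity on each liver array of Cyp4a14, Cyp4a31, Cyp2a5, Cyp3a13, Cyp3a11 and Cyp2b10, with IH (red, n = 7) left of NO (blue, n = 8), a line at the mean and a bar of 1 SD. The IH and NO arrays overlap for all 6 genes, and Cyp4a14 spans 4.78 to 11.66 within the IH livers alone.

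Cyp2a5, the mouse coumarin hydroxylase, spread widely in both groups. It read 10.43, 9.66, 10.69, 13.39, 12.27, 12.83 and 13.56 in the IH livers and 12.81, 10.39, 8.88, 11.30, 10.01, 10.43, 10.87 and 11.32 in the NO livers. IH replicates 19, 21 and 22 lay above every NO liver, and the remaining 4 fell within the NO range. The log2 fold change of 1.08 (SE 0.63, adjusted p = 0.42) was not called, and both other probes of the gene that could be tested gave 1.43 and 1.32. Its relative Cyp2a12, a steroid hydroxylase, had a log2 fold change of 0.32 (adjusted p = 0.437), with all 7 IH livers above the NO mean.

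Clock output genes are described beside it, because Dbp, the clock-driven factor that binds the D-box, controls Cyp2a5 in mouse liver. Dbp read 8.43, 9.69, 9.64, 12.44, 10.81, 11.10 and 13.06 in the IH livers (replicates 16 to 22) and 7.22 to 8.48 in the NO livers (median 7.73), a log2 fold change of 3.05 (adjusted p = 0.0301). Among the IH livers the highest Dbp and the highest Cyp2a5 were on the same arrays, replicates 22 and 19, whereas among the NO livers the highest Dbp (8.48, replicate 3) was on the array with the lowest Cyp2a5 (8.88). Of the 6 clock output genes tested in liver 3 were called higher, Dbp, Nr1d1 (1.53, adjusted p = 0.0353) and Nr1d2 (1.83, adjusted p = 0.00895), against 0.45% of all genes called higher. Within the 7 IH livers Cyp2a5 and Dbp had r = 0.90 and rho = 0.89 (exact permutation p = 0.00595 and 0.0123, adjusted 0.2 over the 72 relations). Within the 8 NO livers the sign was opposite, with r = -0.72 and rho = -0.55 (exact permutation p = 0.0535 and 0.171, adjusted 0.549), and r was -0.12 without the 2 arrays farthest from the median. Neither relation passed the adjustment. The IH livers lay on chip 2 (replicates 16 and 17) and chip 3 (replicates 18 to 22). The permutations within IH livers did not separate these chips, and their part in the relation was not tested.

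The Cyp3a enzymes did not move together. Cyp3a13 read 12.24, 12.64, 11.43, 9.78, 9.63, 11.25 and 11.09 in the IH livers and 9.98 to 12.50 in the NO livers (median 11.83), with a log2 fold change of -0.54 (SE 0.45, adjusted p = 0.59). Cyp3a11 read 11.50, 11.40, 11.95, 12.74, 13.09, 12.44 and 11.52 in the IH livers and 10.10 to 12.78 in the NO livers (median 12.26), with 0.06 (SE 0.36, adjusted p = 0.956). IH replicates 19 and 20 held the lowest Cyp3a13 and the highest Cyp3a11. Cyp3a25, a constitutive member, had a log2 fold change of 0.25 (adjusted p = 0.576).

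Among the Cyp2c and Cyp2d genes the probe decided the size. Cyp2c67 ranged from 13.62 to 13.86 in IH livers (median 13.79) and from 12.79 to 13.85 in NO livers (median 13.64) on its brightest probe, a log2 fold change of 0.25 (adjusted p = 0.433). Its second probe read 11.63 to 12.30 under IH (median 11.78) and 10.06 to 11.67 under NO (median 11.27), with 6 of 7 IH livers above every NO liver, and its log2 fold change was 0.76 (SE 0.21, adjusted p = 0.0858 over all probes). Cyp2d26, an abundant liver member of the Cyp2d cluster, gave 0.07, 0.27 and 0.41 on its 3 probes (adjusted p = 0.668, 0.256 and 0.151). Cyp2c70 lay on the negative side with -0.20 (adjusted p = 0.524), as did Cyp2d40 with -0.12 and Cyp2u1, a hydroxylase of long-chain fatty acids, with -0.24.

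The remaining members showed small differences or isolated arrays. Cyp1a2, the pericentral target of the aryl hydrocarbon receptor, had a log2 fold change of 0.24 (adjusted p = 0.709), Cyp2e1 0.22 (adjusted p = 0.463) and Cyp2f2 0.13 (adjusted p = 0.681). Cyp2b10, the classical target of CAR, was detected on 3 IH and 3 NO livers and read highest on NO replicates 8 and 4 (10.55 and 9.70) and IH replicate 19 (8.97), and Cyp2b23 read highest on the same arrays (7.51, 6.28 and 6.24). Cyp2g1, an olfactory enzyme, was detected on IH replicate 22 alone, with 7.55 and 6.75 on its 2 probes. Cyp2d12 was detected on 3 IH livers and 1 NO liver.

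The spread of the P450 genes between livers of 1 group is given as a description. The median SD of the 30 genes was 0.34 in IH livers and 0.48 in NO livers, beside 0.25 and 0.30 over all genes, and in each group 10 of the 30 lay in the most variable 10% of all genes by SD. Genes that serve the enzymes were not called in liver, with 0 of 10 redox partners and heme genes, 0 of 8 receptors and partners, 0 of 7 liver factors and 0 of 6 P450 genes outside the 4 families. Pericentral hepatocyte markers other than P450s averaged 7.57 to 7.98 in IH livers and 7.70 to 8.34 in NO livers, and of the 7 tested 1 was called lower.

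In adipose tissue Cyp1b1 and Cyp2j9 fell under IH. Of the 58 genes 12 were detected on at least 8 adipose arrays and tested, and 2 were called at an adjusted p under 0.05, both lower, against 32.1% of all 8207 genes (17.6% higher and 14.5% lower). The median log2 fold change was 0.19 over the 12 genes and 0.11 over all genes. The groups did not overlap for 1 of the 12, Cyp1b1, against 10.9% of all genes (2.23% higher and 8.7% lower).

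Cyp1b1 read 7.89, 7.79, 8.42, 8.24, 8.31, 8.28, 7.74 and 8.72 in IH adipose tissue (replicates 15 to 22) and 9.01, 10.42, 9.22, 10.00, 9.77, 9.54, 9.77 and 9.36 in NO adipose tissue. Every IH array lay below every NO array. The log2 fold change was -1.46 (SE 0.19, adjusted p = 1.21e-05), and the exact permutation p of 0.000155 is the smallest that this design can give. The gene has a single probe. Its log2 fold change was -1.37 (adjusted p = 2.38e-04) without the 3 arrays that carry epididymis transcripts.

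Cell type markers are described beside it, in a tissue where 32.1% of all genes were called. The adipocyte markers averaged lower on every IH array than on any NO array, as given above, and of the 7 tested 2 were called lower. Of the 7, Fabp4 alone separated the exposures (5.48 to 8.96 under IH and 10.55 to 11.85 under NO), and each of the others overlapped. The 5 mesothelial markers averaged 7.01 to 8.29 under IH (median 7.24) and 7.58 to 8.96 under NO (median 8.05), with 2 of 5 called lower, and the 9 stellate and fibroblast markers 8.36 to 8.97 (median 8.68) and 8.55 to 9.17 (median 8.90), with 1 of 8 called higher and 2 lower. The 6 macrophage markers averaged 5.61 to 7.04 under IH and 6.11 to 7.87 under NO, with 1 of 3 tested called lower, Adgre1 (-2.81, adjusted p = 1.91e-07, 5.36 to 7.18 under IH and 8.57 to 9.87 under NO). The 7 endothelial markers averaged 5.90 to 7.57 under IH and 7.33 to 7.94 under NO, with 2 of 5 tested called lower, among them Lyve1 (-1.72, adjusted p = 0.0014). The part of these markers in the lower Cyp1b1 was not tested.

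Cyp2j9, a member of the Cyp2j subfamily, read 7.37, 6.44, 7.50, 7.72, 6.29, 7.68, 7.65 and 7.55 in IH adipose tissue and 8.42, 7.37, 7.71, 7.55, 8.11, 8.31, 8.40 and 8.10 in NO adipose tissue. All 8 IH arrays lay below the NO mean of 8.00, and the groups overlapped. The 2 lowest IH values were those of replicates 16 and 19, which carry epididymis transcripts. The log2 fold change was -0.72 (SE 0.23, adjusted p = 0.0263, two-sided exact permutation p = 0.00839) over all arrays and -0.48 (adjusted p = 0.0379) without the 3 arrays. The call was lost without NO replicate 1, NO replicate 7 or IH replicate 16 (adjusted p between 0.0513 and 0.0518).

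**Figure D4:**
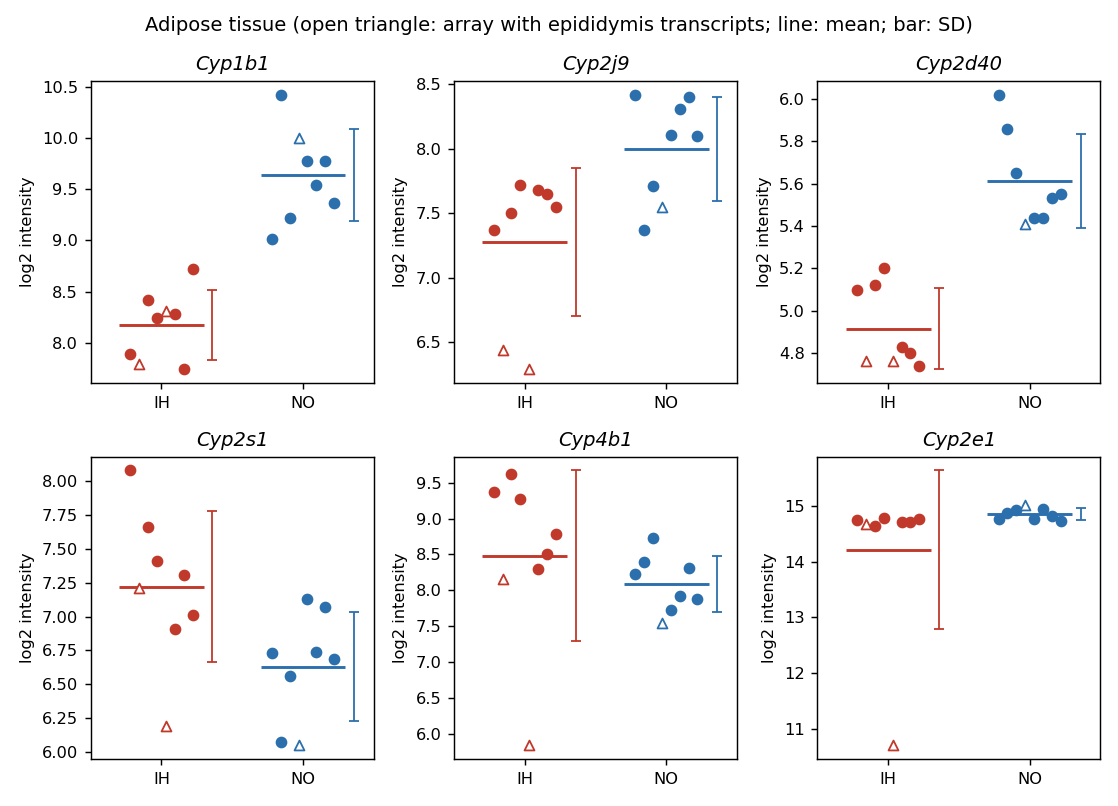
Log2 intensity on each adipose array of Cyp1b1, Cyp2j9, Cyp2d40, Cyp2s1, Cyp4b1 and Cyp2e1, with IH (red, n = 8) left of NO (blue, n = 8), a line at the mean and a bar of 1 SD, and open triangles for the 3 arrays with epididymis transcripts. Cyp1b1 and Cyp2d40 separate the exposures on every array, and 1 triangle, IH replicate 19, sets the low end of Cyp2s1 within IH, of Cyp4b1 and of Cyp2e1.

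Other members depended on those 3 arrays. Cyp2s1, which is expressed mostly outside the liver, read 6.19 to 8.08 under IH (median 7.26) and 6.05 to 7.13 under NO (median 6.71), with a log2 fold change of 0.59 (adjusted p = 0.0566) over all arrays and 0.69 (adjusted p = 0.0208) without them. Cyp4b1 read 5.84 to 9.62 under IH (median 8.64) and 7.55 to 8.73 under NO (median 8.07), with 0.39 (adjusted p = 0.497) and 0.80 (adjusted p = 0.016). Without the 3 arrays 6 of 13 members tested were called, against 31.5% of 8295 genes, and they were Cyp1b1, Cyp2j9 and Cyp2d40 lower and Cyp2s1, Cyp4b1 and Cyp4f16 higher. Cyp2d40 passed the filter only through its NO arrays, and 5 of the other 12 were called.

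Cyp2d40 was detected on 7 of the 8 NO adipose arrays and none of the 8 IH arrays, and so missed the filter of 8 arrays when all were used. It read 4.74 to 5.20 under IH (median 4.82) and 5.41 to 6.02 under NO (median 5.54), with no overlap. Without the 3 arrays it passed the filter, but only through the NO arrays where it is higher, so that its call is no separate evidence of a difference. All its adipose values lie near the level at which probes cease to be detected, whereas in liver it read 10.87 to 11.68 under IH and 11.01 to 12.03 under NO.

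Cyp4f16 gave probes in opposite directions. Its brightest probe read 7.22 to 8.00 under IH (median 7.83) and 7.24 to 7.96 under NO (median 7.47), a log2 fold change of 0.19 (adjusted p = 0.31). Another read 5.13 to 5.87 under IH (median 5.50) and 6.31 to 7.12 under NO (median 6.41), with no overlap and a fold change of -1.02 on the log2 scale (adjusted p = 1.40e-05 over all probes), and the remaining probe gave 0.23 (adjusted p = 0.366). Probes of 1 gene that were called in opposite directions occurred in 96 of the 1984 genes with several probes tested in adipose tissue. Which transcripts the probes read was not tested.

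Cyp2e1 in IH adipose tissue was 10.70 on replicate 19 and 14.65 to 14.79 on the other 7 arrays, against 14.73 to 15.03 in NO adipose tissue. Its log2 fold change was -0.64 (SE 0.46, adjusted p = 0.308) over all arrays and -0.11 (adjusted p = 0.304) without the 3 arrays. All 8 IH arrays lay below the NO mean and 5 below every NO array, and the two-sided exact permutation p over all arrays was 0.0028, unadjusted. Cyp4v3, which acts on fatty acids of the eye, lay between 7.98 and 10.57 under IH (median 9.79) and between 9.30 and 10.55 under NO (median 9.78), and its lowest value was again that of IH replicate 19. The other tested members, Cyp2d22 (-0.14), Cyp2d9 (0.62), Cyp2f2 (0.19), Cyp4f13 (0.22) and Cyp4f39 (0.39), were not called. Without the 3 arrays their log2 fold changes were 0.04, 0.47, 0.25, 0.30 and 0.49, also not called, and that of Cyp2d22 had changed its sign.

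Some members had their highest adipose values on the arrays that stand apart. Cyp4a12a read 8.98 on IH replicate 19 and 9.02 on NO replicate 4, against 4.89 or less on the other 14 adipose arrays. Cyp2j13, of the Cyp2j subfamily, read 7.20 on IH replicate 19, 7.57 on NO replicate 4 and 5.95 on IH replicate 16, and Cyp2j11 read 6.79 and 6.05 on IH replicate 19 and NO replicate 4. Cyp4f15 reached 7.94 and 6.55 on the same pair, against 6.04 or less on the other 14. The part of epididymis transcripts in these values was not tested. On IH replicate 18, with its hepatocyte transcripts, the liver genes Cyp2f2, Cyp2c70 and Cyp2d10 read 6.55, 6.20 and 5.68, each the highest adipose value of its gene.

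**Figure D5:**
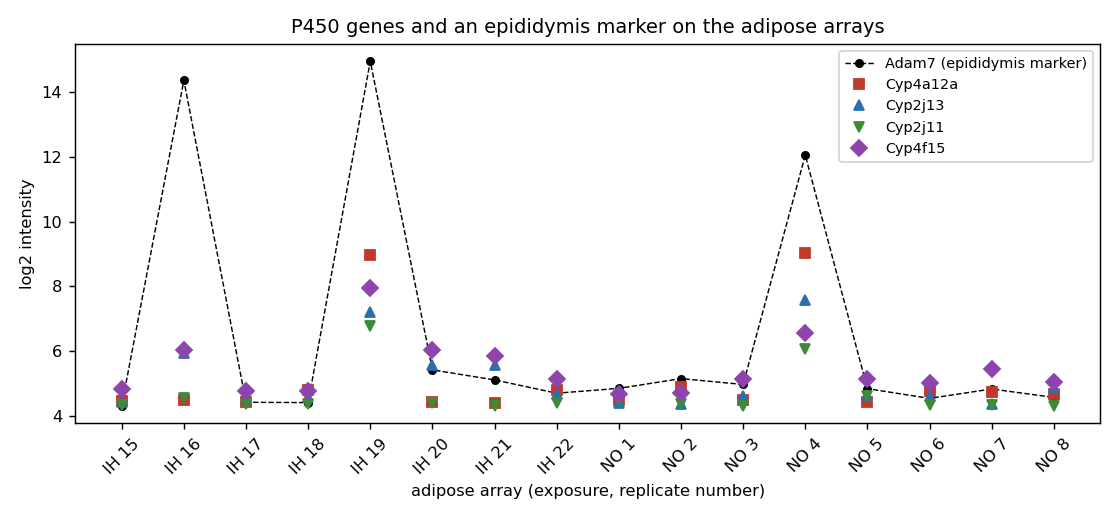
Log2 intensity on each of the 16 adipose arrays of the epididymis gene Adam7 (black, dashed line only to guide the eye) and of Cyp4a12a, Cyp2j13, Cyp2j11 and Cyp4f15, with IH arrays left of NO arrays. Adam7 stands at 14.36, 14.95 and 12.05 on IH replicates 16 and 19 and NO replicate 4, and the 4 P450 genes have their highest values on IH replicate 19 or NO replicate 4.

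Genes that serve the enzymes were also read in adipose tissue, where 32.1% of all genes were called. Of 9 redox partners and heme genes 1 was called higher (Ppox, 0.46 on the log2 scale) and 3 lower. The lower ones were Pgrmc1, a heme-binding partner of P450s (-2.57, 6.77 to 8.13 under IH and 9.52 to 10.24 under NO), Cyb5a, the electron donor cytochrome b5 (-1.71, 9.70 to 10.55 under IH and 11.42 to 12.39 under NO), and Alas1, the first enzyme of heme synthesis (-0.85, 12.01 to 13.01 under IH and 13.15 to 13.84 under NO). None of these 3 had groups that overlapped. Of 7 receptors and partners 1 was called, the estrogen receptor Esr1 (-1.78, adjusted p = 1.04e-05). Of 4 P450 genes outside the 4 families 1 was called, Cyp7b1, the oxysterol hydroxylase (1.14, adjusted p = 0.00136).

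The effect of IH differed between the tissues for 2 of the 36 genes tested together, against 22.3% of all 8905 genes (12.1% higher and 10.1% lower). For Cyp1b1 the effect in liver minus that in adipose tissue was 1.30 on the log2 scale (SE 0.28, adjusted p = 6.28e-04), and for Cyp4a31 it was 1.58 (SE 0.48, adjusted p = 0.0172). Both rest on a tissue in which the gene was not detected on any array, liver for Cyp1b1 (4.72 to 5.21 under IH and 4.64 to 5.96 under NO) and adipose tissue for Cyp4a31 (4.26 to 4.55 under IH and 4.31 to 4.58 under NO). Cyp4a31 also entered this test only through the IH livers, where it is higher, since 2 NO livers detected it. Cyp2c70 (-0.66, adjusted p = 0.0554) and Cyp2d40 (0.50, adjusted p = 0.0583) came next. Cyp2c70 was detected on 2 of the 16 adipose arrays, with its highest value on IH replicate 18, and Cyp2d40 on no IH adipose array. Without the 3 adipose arrays 3 genes were called, Cyp1b1, Cyp4a31 and Cyp2c70, and without adipose IH replicate 18 also 3, Cyp1b1, Cyp4a31 and Cyp2d40.

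Of the 58 genes 35 were tested between exposures in at least 1 tissue. A further 8, Cyp2b10, Cyp2b23, Cyp2c40, Cyp2d12, Cyp2g1, Cyp2j11, Cyp2j13 and Cyp4f18, were detected on too few arrays to be tested in either, and the other 15 were detected on none. Cyp4f18, which hydroxylates leukotrienes in leukocytes, was detected in adipose tissue only, with 4.75 to 7.10 under IH (median 5.29) and 4.42 to 6.46 under NO (median 4.77) on its brightest probe.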

How the data were processed

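RNA of 31 tissue samples (250 ng each) was hybridized to MouseRef-8 BeadChips. The authors extracted values with GenomeStudio at its default settings. They deposited a table labelled as not normalized, with a linear intensity for each of 25697 probes and its detection p-value. Its arrays nevertheless share nearly 1 distribution of values, like arrays that were quantile normalized together, which may reduce differences between tissues. A second deposited intensity table was used as an alternative.

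The intensities were background-corrected, quantile normalized and log2-transformed with neqc of limma 3.58.1 in R 4.3.3 (offset 16), per tissue, and over all arrays for comparisons between tissues. Probes with a detection p-value under 0.01 on at least 7 liver, 8 adipose or 7 of all arrays were kept, and the brightest kept probe stood for its gene. Means were compared with limma's linear model and moderated statistics, two-sided, and p was adjusted over all genes tested by the method of Benjamini and Hochberg. Single values were also checked by exact permutation over samples. The alternatives covered normalization, filters, probes, variance models, chips, the SAM test of the methods and leaving out each replicate. The size of change that limma could find in the P450 genes of either tissue was not tested.

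The members, the gene lists and the tests were chosen with earlier results of these data known. Genes were named when called, when among the 4 smallest p in a direction, when largest between tissues or as the only detected gene of a subfamily, and otherwise as entries of a role group. Of the probes, 23978 carry 1 gene symbol and 1719 none, and the symbols of all 79 P450 probes are current in RefSeq. The p-values for differences set group means against the spread between samples within groups. For exposure they do not separate IH from chip, and the number of arrays limits the precision.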

Additional observations from a re-analysis of the deposited data

Results flagged for a closer look

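Values of single arrays were checked in 32 sets, each the values of 1 P450 gene in 1 group. Chance puts about 1 in 20 such sets past the limit, and 4 were. Cyp2c70 on liver NO replicate 2 was 13.57, below the 14.29 to 14.54 of the other 7 arrays. Cyp3a13 on liver NO replicate 8 was 9.98, below 11.44 to 12.50. On adipose IH replicate 19 Cyp2e1 was 10.70, below 14.65 to 14.79, and Cyp4v3 was 7.98, below 9.42 to 10.57. That array read epididymis transcripts, and their part in these values was not tested.

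The effect of IH differed between the tissues by limma's test of the difference for Cyp1b1, with 1.30 on the log2 scale for liver minus adipose tissue (adjusted p = 6.28e-04), and for Cyp4a31, with 1.58 (adjusted p = 0.0172). Cyp1b1 was detected on no liver array and Cyp4a31 on no adipose array, and Cyp4a31 entered the test only through the IH livers, where it is higher.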

How the results depend on the processing

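In liver the count of P450 genes called between IH and NO stayed at 0 without each replicate in turn and under every alternative but SAM, which called 1, Cyp4a31. The share of all genes that SAM called is not given here. In limma the count over all genes ran from 5 to 99 without single replicates. In adipose tissue the count of 2 ran from 1 (without NO replicate 1) to 5 (without IH replicate 19) over the replicates left out, and was 6 without the 3 arrays with epididymis transcripts, an alternative chosen after seeing the data. The 32 genes called between tissues ran from 31 to 33 without single replicates, and were 31 on the chip that holds both tissues, whose liver arrays are of IH and whose adipose arrays are of NO mice. The 2 genes whose IH effect differed between tissues ran from 2 to 4 (4 without liver IH replicate 20), and were 4 with each tissue normalized alone. Directions turned for Cyp2a5 (-0.71) and Cyp3a13 (0.75) in liver with the IH arrays of chip 2 only, and for Cyp4v3 in adipose tissue without IH replicate 19 (0.0767, with -0.293 to 0.0767 over the replicates left out) or without the 3 arrays (0.0833). Cyp2d22 in adipose tissue, -0.14 over all arrays, was 0.04 without the 3 arrays. Their causes were not tested. Samples with the same number in both tissues deviated together in 9 of 15 pairs (r over 0.1, range -0.06 to 0.30). Of the 15 liver arrays 8 correlated best with their own number, each among 8 adipose arrays of its exposure. The labels do not say whether equal numbers mean the same mouse. The main tests treated the samples as independent. With the replicate number as a block 32 genes were called between tissues and 2 for the difference. Transcripts near the detection level, such as Cyp4a31 under NO and Cyp2d40 in adipose tissue, are limited by signal over background.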
